A study of Mus musculus with 16 samples.

Results

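The potassium channel genes were taken as every gene whose array name begins with Kcn, read from the probes that are not controls. They came to 98 genes with 148 probes and 175 spots, out of 27444 named genes on the array. Their messenger RNA was measured in P19 cells, a mouse embryonal carcinoma line that can be turned into neurons, on 16 arrays of 1 colour. The cells were transfected for 48 h with a control, with a mimic of the microRNA let-7a, with an siRNA against Sfpq (siSfpq), or with the mimic and siSfpq together, at 24 nM per the study's methods, and each condition had 4 arrays. All groups therefore share the cell line and a transfection, and no group was left untransfected in these data. Sfpq is an RNA-binding protein of the nucleus and let-7a is a microRNA that rises as embryonic cells differentiate, so the design asks what each does to the transcripts, alone and together.

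Potassium channels let potassium ions cross the membrane and so set the resting potential and end each action potential. Their pore subunits fall into voltage-gated families (Kv, EAG, ERG and ELK, and the Kv7 family of the M-current), calcium- or sodium-activated channels, inward rectifiers, and the tandem-pore K2P channels that carry the leak current. Silent Kv subunits open no pore of their own but modify Kv channels, and auxiliary subunits such as KChIP and the BK beta subunits change gating and trafficking. In neurons, these families tune firing rate and pattern, and several are switched on as a neuron matures.

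The microRNA that was added reads, with its seed (bases 2 to 8) in capitals, as follows in RefSeq (GRCm38.p6, chr13:48538239-48538260, minus strand); it is shown because it is the treatment of the let-7a arrays.
let-7a: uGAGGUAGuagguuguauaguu
Members are given below by their levels, not by matches to this seed, since no transcript sequences were at hand.

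Of the 98 genes, 61 were tested, each with a probe that stood well above background in some condition on every one of its 4 arrays. Signal was seen on all 16 arrays for 46 genes, on some arrays but in no full condition for 16, and on none for 21. The 61 kept 81 of the 148 probes. By kind, which was set by gene symbol, 11 of 14 K2P channels and 14 of 17 Kv1 to Kv4 pore subunits were tested. Among the silent Kv subunits it was 4 of 10, among the inward rectifiers 7 of 15, and among the auxiliary subunits 8 of 16. The remaining kinds gave 6 of 8 EAG, ERG and ELK subunits, 6 of 8 calcium- and sodium-activated pores, 3 of 5 Kv7 subunits, 1 of 4 noncoding RNAs and 1 of 1 other gene. Fewer genes were seen on all 4 arrays under siSfpq, 48, than in the control, 54, under let-7a, 57, or with both, 58. The arrays as a whole went the same way: over all 27444 named genes the share seen on all 4 arrays was 61.0% under siSfpq, 63.2% in the control, 65.6% under let-7a and 64.7% with both, and the part of this in the counts of potassium channel genes was not tested. Kcnq1ot1, the noncoding RNA of the imprinted Kcnq1 domain, was above background on 0 of the 16 arrays with either of its probes, and Kcnmb4os2 was the noncoding member seen on all 16.

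Levels below are log2 intensities after quantile normalisation, and they compare samples for a gene, never one gene with another. Arrays 1 and 2 of a condition differed by a median of 0.067 on this scale, close to the 0.060 between repeated spots of 285 probes on a single array, so they were averaged and counted as 1 sample, which leaves 3 samples per condition and 12 in all. Where 3 values are listed, they stand for replicates 1 and 2 together, replicate 3 and replicate 4. A gene is called changed at an adjusted p under 0.05 in limma, with Benjamini-Hochberg adjustment over the 18338 genes tested. The labels do not say whether samples came from separate cultures, and the p-values then measure only the spread between these samples.

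The transfections were checked on their targets, and replicate 3 stood apart. Repeated spots differed by a median of 0.27 between arrays 1 and 3 of a condition and by 0.11 between arrays 1 and 4. Sfpq was at 12.07, 11.98 and 11.98 in the control and at 10.55, 11.46 and 10.62 under siSfpq, a change of -1.13 ± 0.19 (SE; limma adjusted p = 0.00732). In replicate 3 it was thus far closer to the control than in the others. With both agents it was at 11.31, 11.49 and 11.41, against 11.90 to 12.04 with let-7a (-0.58 ± 0.19, limma adjusted p = 0.142). The let-7 targets Hmga2 and Lin28a fell by 1.40 and 0.77 under let-7a (limma adjusted p = 0.0117 and 0.00252). Of the embryonal carcinoma markers, 9 of 10 were above background, and the missing one was Zfp42. Replicates 1 and 2 lay on 1 slide and replicates 3 and 4 on the other.

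Under let-7a, 9 of the 61 tested potassium channel genes were called, 8 higher and 1 lower than in the control. The 8 that rose are pore subunits from 5 kinds of channel, and Kcnk10 rose by 3.55-fold. Over all genes tested, 6.91% were called in this comparison, 4.89% higher and 2.02% lower, against 14.8% of the potassium channel genes. The median change over the 61 genes was -0.04, with 28 of them above 0 and 33 below. In bulk samples like these, a change in the number of cells of a type and a change in RNA per cell cannot be told apart.

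Among the Kv1 to Kv4 pores, Kcnc1, a fast delayed rectifier of rapidly firing neurons (chr7:46396219-46438706 in GRCm38.p6), and Kcnd3, an A-type channel (chr3:105451890-105674002), were higher with let-7a. Kcnc1 was at 5.80, 5.70 and 5.83 in the control and at 7.24, 6.49 and 7.12 with let-7a, a change of 1.17 ± 0.21 (SE; limma adjusted p = 0.00695). Kcnd3 was at 6.34, 5.88 and 6.31 in the control and at 7.29, 6.93 and 7.30 with let-7a (1.0 ± 0.18, limma adjusted p = 0.00751). For both genes every let-7a sample lay above every control sample. Kcnh8, of the ELK family, gained 0.75 ± 0.20 (limma adjusted p = 0.0406), and its levels were 5.15 to 5.57 in the control and 5.96 to 6.30 with let-7a. With no filter on dim probes Kcnd3 and Kcnh8 were not called, nor was Kcnh8 with only the groups compared in the fit.

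The calcium- and sodium-activated pores held 2 called genes of 6 tested. Kcnu1 was counted among the 6 by its symbol, not by the ion that opens it. Kcnt1, a sodium-activated channel (chr2:25863791-25918273), was at 5.19, 5.08 and 4.83 in the control and at 6.44, 5.90 and 6.86 with let-7a (1.37 ± 0.32, limma adjusted p = 0.0268). Kcnn2, a small-conductance calcium-activated channel of the afterhyperpolarisation, was at 6.49 to 6.68 in the control and at 7.19 to 7.47 with let-7a (0.78 ± 0.14, limma adjusted p = 0.00695). With normexp, another background correction, the rise of Kcnt1 was 0.68 and was still called, and with no filter on dim probes it was 1.05 and was not called. The median of the 6 was 0.72, with 4 above 0.

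Among K2P channels, Kcnk10, a mechanically gated leak channel (chr12:98429432-98578213), was at 6.24, 5.61 and 6.22 in the control and at 8.12, 7.55 and 7.88 with let-7a (1.83 ± 0.28, limma adjusted p = 0.0031). The lowest let-7a sample was 1.32 above the highest control sample. With normexp its rise was 1.16, still called. Kcnk12, a K2P subunit with little or no current of its own, rose by 0.64 ± 0.17 (limma adjusted p = 0.0436), from 7.19 to 7.69 in the control to 7.99 to 8.22. It was not called in the authors' table (0.55), with no filter on dim probes, with each probe on its own or with only the groups compared in the fit. The other 9 K2P genes were not called, and the median of the 11 was -0.22.

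One inward rectifier, Kcnj8, the pore of a vascular and muscle ATP-sensitive channel, went the other way. It was at 4.85, 4.92 and 4.60 in the control and at 3.68, 3.93 and 3.63 with let-7a (-1.05 ± 0.25, limma adjusted p = 0.0307), and it was well above background on 4 arrays of the control and on 1 of let-7a. With other background handling this change was smaller, -0.28 with normexp and -0.41 in the authors' table, and it was not called. It was not called with scaling to the 75th percentile either, at -1.05 (limma adjusted p = 0.0525). Kcnj12, a strong inward rectifier, changed by 1.26 ± 0.35 without passing the threshold (limma adjusted p = 0.0519). No silent Kv subunit, of 4, and no auxiliary subunit, of 8, was called in this comparison.

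**Figure D1:**
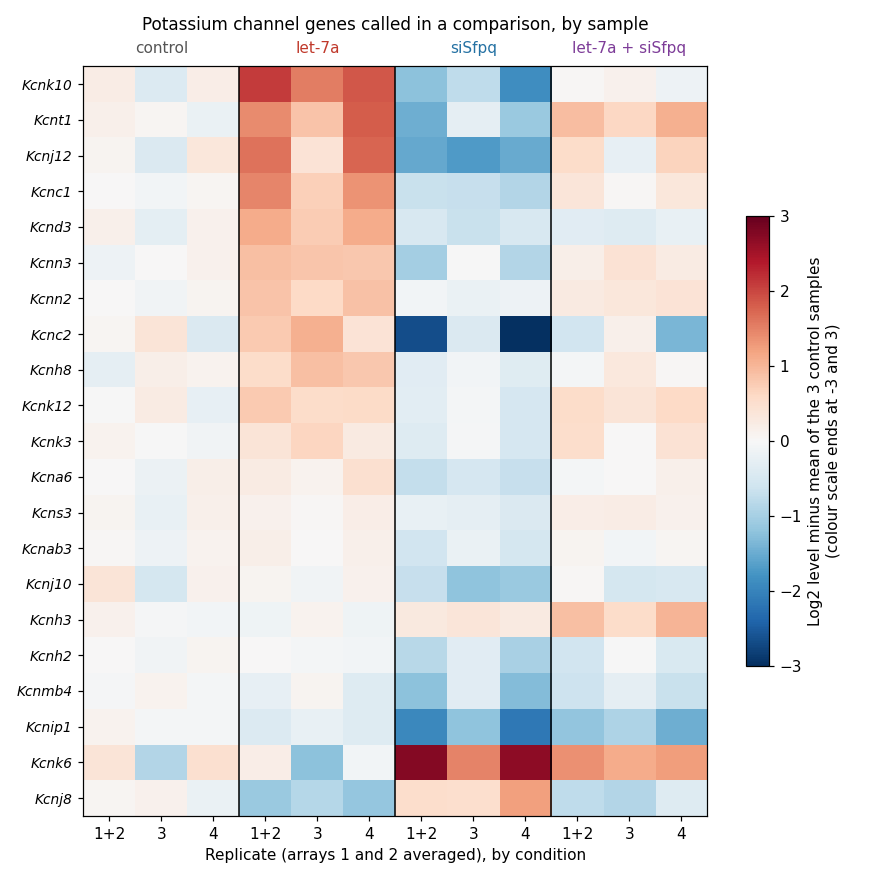
Log2 level of 21 of the 22 potassium channel genes called in any of the 5 comparisons (rows) in the 12 samples (columns, by condition and replicate), as the difference from the mean of the 3 control samples; red is higher and blue is lower. Kcnk10, Kcnt1, Kcnj12 and Kcnc1 are red under let-7a, blue under siSfpq and between these with both, whereas Kcnj8 is blue under let-7a and red under siSfpq, and Kcnk6 is highest under siSfpq.

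The counts depended on replicate 3. Without it, the comparison of let-7a with control called 21 of the 61 (30.1% of all genes), the 9 among them. With the replicate number as a block it called 21 as well (21.7% of all genes), also with all 9. Leaving out replicate 4, or replicates 1 and 2 together, left 0 called, where 0.0109% and 0.0164% of all genes were called.

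Under siSfpq, 10 of the 61 genes were called, 9 lower and 1 higher than in the control, against 13.6% of all genes tested, 7.34% lower and 6.3% higher. They spanned Kv pores, inward rectifiers, K2P channels and auxiliary subunits. Kcnk6 was the gene that rose. The median change over the potassium channel genes was -0.31, with 41 of 61 below 0, where the median over all genes was 0.01. The former ran from -0.38 to -0.13 under the alternatives tried. It was -0.19 in the authors' table, -0.16 with no filter on dim probes, -0.14 with probes above background on all 16 arrays and -0.13 with normexp.

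Of the 14 Kv1 to Kv4 pores, 3 were lower and the median was -0.56. Kcnc2, which like Kcnc1 serves fast firing, was at 5.32, 5.64 and 4.83 in the control and at 2.60, 4.83 and 1.58 under siSfpq (-2.26 ± 0.67, limma adjusted p = 0.0455). The groups met at 4.83, where replicate 3 lay, and Kcnc2 was above background on 4 control arrays and on 1 siSfpq array. With slide as a block, no filter on dim probes, no intensity trend or only the groups compared, Kcnc2 was not called. Its change was -0.50 with normexp, -0.78 in the authors' table and -2.99 without replicate 3, called in each. Kcnc1 was at 5.12, 5.10 and 4.90 (-0.74 ± 0.21, limma adjusted p = 0.0397), below every control sample, but it changed by -0.26 with normexp and by -0.36 in the authors' table, and was not called in either. The call was lost in 8 of 14 alternatives, also with no filter on dim probes, with probes above background on all 16 arrays and with each probe on its own. Kcna6, a Kv1 subunit, was at 8.67 to 8.89, against 9.21 to 9.57 in the control (-0.64 ± 0.14, limma adjusted p = 0.0155). Its 2 kept probes changed by -1.01 and -0.26.

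The auxiliary subunits held 2 called genes of 8, both lower. Kcnip1, a KChIP subunit that binds the A-type Kv4 channels (chr11:33629339-33993348), was at 7.80, 7.65 and 7.64 in the control and at 5.77, 6.49 and 5.55 under siSfpq (-1.76 ± 0.23, limma adjusted p = 0.00453). The probe behind it has 10 spots on each array, which spread with an SD of 0.061 to 0.19. Kcnmb4, the neuronal beta subunit of the BK channel, was at 9.26 to 9.43 in the control and at 8.09, 8.98 and 8.02 under siSfpq (-0.96 ± 0.23, limma adjusted p = 0.024). Replicate 3 was nearest to the control for both genes. With normexp the change of Kcnip1 was -1.14, still called, and with no filter on dim probes it was -1.11, not called.

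Of 7 inward rectifiers, Kcnj12 and Kcnj10 were lower, although the median of the 7 was 0.20. Kcnj12 (chr11:61022564-61073269) was at 8.95, 8.44 and 9.19 in the control and at 7.31, 7.16 and 7.34 under siSfpq, 3.0-fold lower (-1.59 ± 0.35, limma adjusted p = 0.0167). Its siSfpq samples were all within 0.2 of each other and at least 1.09 below any control sample. Kcnj10, which in the brain is the main inward rectifier of glia, was at 4.69 to 5.59 in the control and at 3.99 to 4.52 under siSfpq (-1.0 ± 0.27, limma adjusted p = 0.0337), above background on 2 of the 4 siSfpq arrays, and with normexp its change was -0.34, still called. Kcnh2, the ERG channel that repolarises the heart, was at 8.49 to 8.68 in the control and at 7.76, 8.25 and 7.61 under siSfpq (-0.72 ± 0.19, limma adjusted p = 0.0293).

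The K2P channels moved both ways. Kcnk10 was at 4.79, 5.27 and 4.16 under siSfpq against 6.24, 5.61 and 6.22 in the control (-1.28 ± 0.28, limma adjusted p = 0.0171), and with normexp the change was -0.46, still called. Kcnk6, a K2P channel better known from epithelia and vessels than from neurons (chr7:29221928-29232522), was at 4.43, 3.15 and 4.53 in the control and at 6.78, 5.53 and 6.72 under siSfpq (2.31 ± 0.47, 4.95-fold, limma adjusted p = 0.0135). Against the control of the same number it rose by 2.35, 2.38 and 2.19, nearly alike in the 3 samples, even though its level was lowest in replicate 3 of every condition. It was well above background on 3 of 4 control arrays, and its rise was 0.86 with normexp and 1.29 in the authors' table, still called in both.

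**Figure D2:**
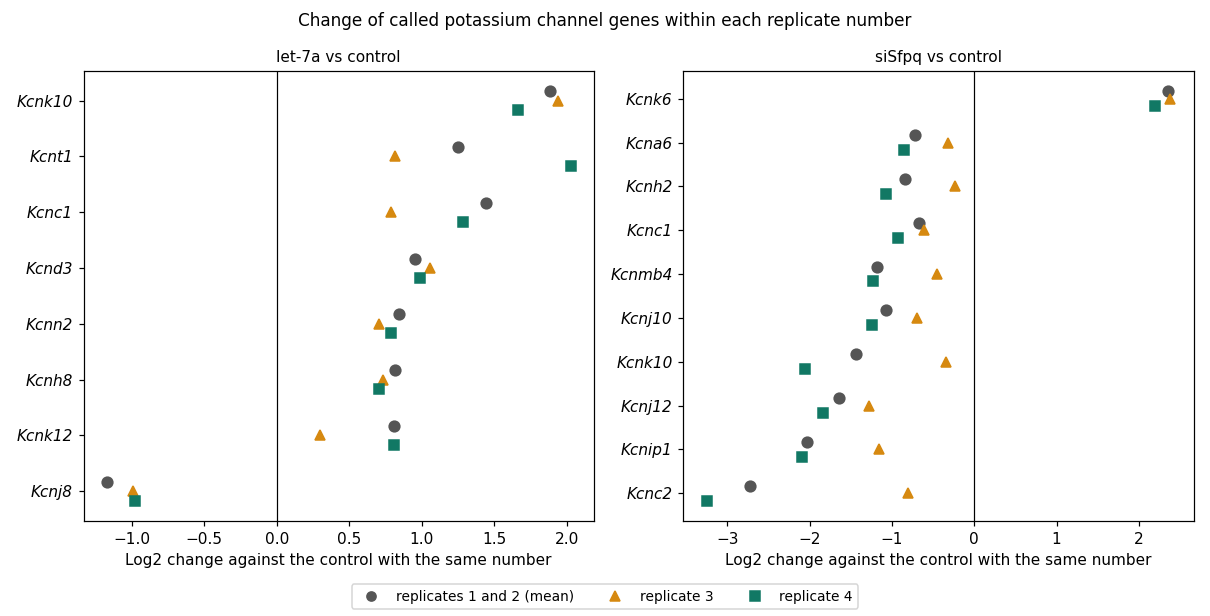
Log2 change of the called potassium channel genes, 8 for let-7a and 10 for siSfpq (rows; a called gene not reported here is left out), against the control sample of the same replicate number, for let-7a (left) and siSfpq (right). In the siSfpq panel replicate 3 (triangles) is the point nearest to 0 for the 9 genes that fell, from -0.24 for Kcnh2 to -1.28 for Kcnj12, whereas for Kcnk6 the 3 points lie between 2.19 and 2.38.

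Without replicate 3, 39 of the 61 genes were called under siSfpq (49.3% of all genes), and with the replicate number as a block 32 (37.8% of all genes). Both sets hold the 10 genes above. The smaller changes in replicate 3 went with its smaller fall in Sfpq, and the part of that difference in these results was not tested. Replicate 3 also differed with let-7a, where Sfpq changed by -0.03 ± 0.19. There Hmga2 changed by -1.74, -0.67 and -1.77 in the 3 samples, least in replicate 3, whereas Kcnk10 changed by 1.89, 1.94 and 1.66. With replicate 4 or with replicates 1 and 2 left out, 0 genes were called, and 0 when only the siSfpq and control samples entered the fit. In each of these fits 0% of all genes were called. With no filter on dim probes 3 were called (5.54% of all genes), Kcnj12, Kcnk6 and Kcnk10, so that Kcna6, Kcnc1, Kcnc2, Kcnh2, Kcnip1, Kcnj10 and Kcnmb4 were not.

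**Figure D3:**
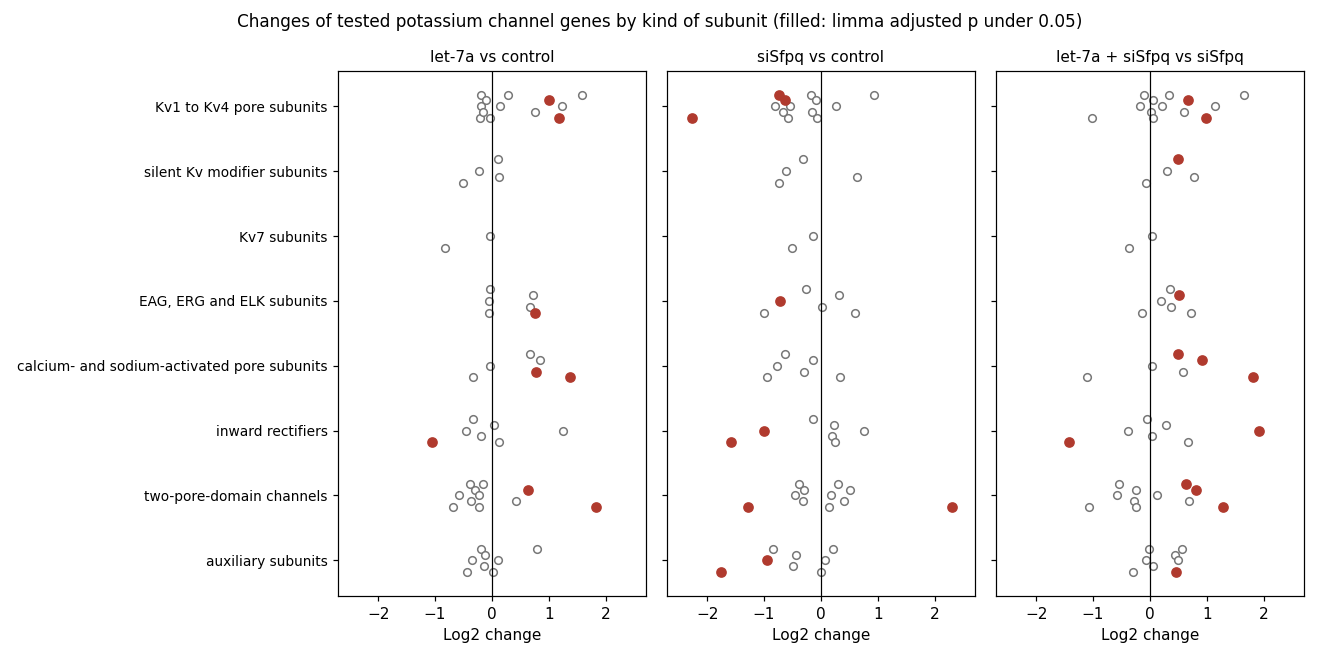
Log2 change of the tested potassium channel genes (points; genes not reported here are left out) by kind of subunit (rows), for let-7a against control, siSfpq against control, and let-7a + siSfpq against siSfpq; filled points were called by limma. The median of the Kv1 to Kv4 pores was 0.21, -0.56 and 0.28 in the 3 panels, and that of the K2P channels was -0.22, 0.15 and -0.24.

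With let-7a and siSfpq together, 2 of the 61 genes were called against the control, 1 higher and 1 lower, where 1.54% of all genes were called, 1.3% higher and 0.245% lower. Kcnh3, an ELK channel of the forebrain (chr15:99224517-99242818), was at 9.0, 8.83 and 8.79 in the control and at 9.77, 9.42 and 9.89 with both (0.82 ± 0.14, limma adjusted p = 0.0146). Its range was 8.75 to 8.99 with let-7a and 9.15 to 9.24 with siSfpq, so that the samples with both agents lay above all others. Kcnip1 was at 6.52, 6.78 and 6.23 with both (-1.19 ± 0.23, limma adjusted p = 0.0306), below the control and above the siSfpq sample of the same number each time, and with no filter on dim probes it was not called. The median over the potassium channel genes was 0.01. Without replicate 3, 16 were called (18.3% of all genes), and with the replicate block 5 (8.16%).

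Kcnk10 and Kcnc1 were higher with let-7a and lower with siSfpq, and with both their levels were near the control. Kcnk10 was at 6.06, 6.15 and 5.88 with both, 0.01 ± 0.28 from the control. Kcnc1 was at 6.13, 5.81 and 6.12 (0.24 ± 0.21). Kcnj12, lower with siSfpq but not called with let-7a, was at 9.41, 8.61 and 9.53 with both (0.33 ± 0.35). None of these 3 differences from the control passed the threshold (limma adjusted p = 0.998, 0.787 and 0.852), which does not show that the levels were equal.

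**Figure D4:**
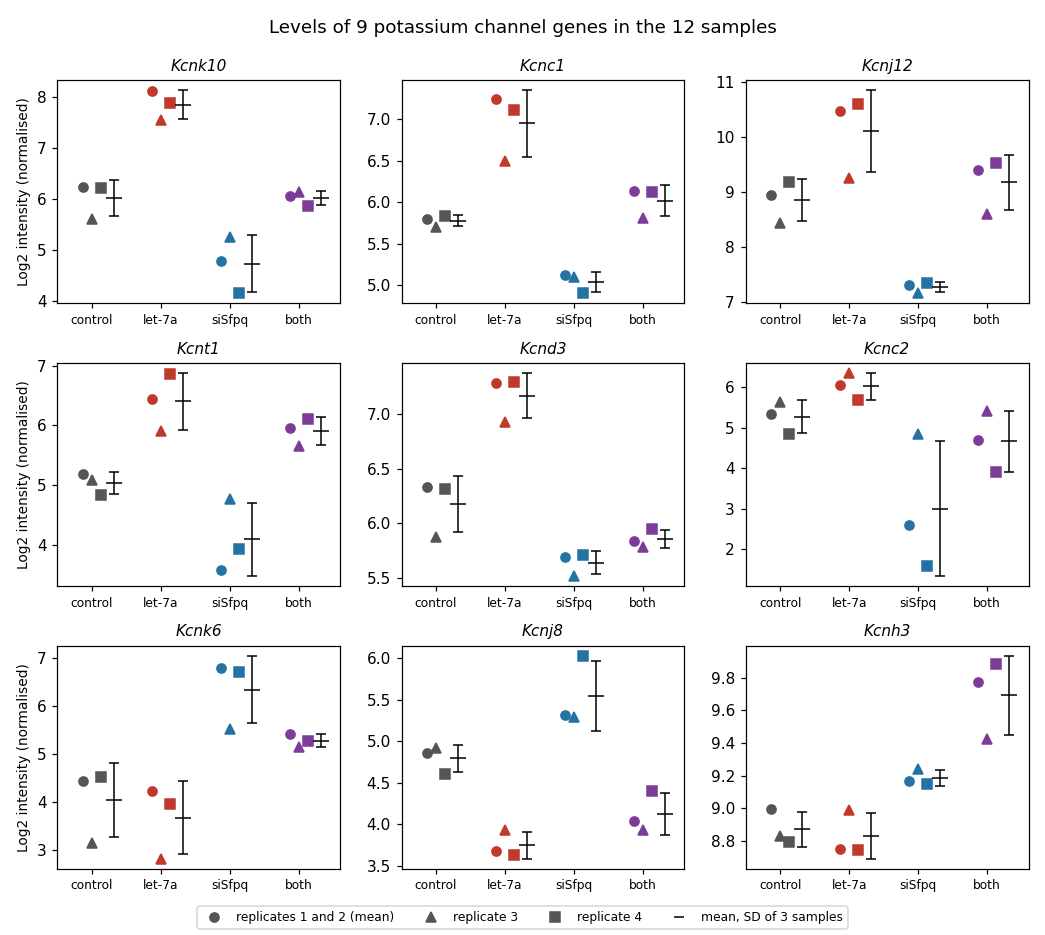
Normalised log2 intensity of 9 potassium channel genes in the 12 samples, by condition ("both" is let-7a + siSfpq); symbols mark the replicate, and bars give the mean and SD of 3 samples. Each panel has its own axis. Kcnk10, Kcnc1 and Kcnj12 are highest with let-7a, lowest with siSfpq and near the control with both, Kcnk6 is highest with siSfpq (5.53 to 6.78), and Kcnh3 is highest with both (9.42 to 9.89).

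Adding siSfpq to let-7a, 4 of the 61 genes were called, 1 higher and 3 lower, against 3.15% of all genes, 0.954% higher and 2.19% lower. Kcnk10 fell by 1.82 ± 0.28 (limma adjusted p = 0.0102), Kcnd3 fell by 1.32 ± 0.18 (limma adjusted p = 0.00583) and Kcnc1 fell by 0.93 ± 0.21 (limma adjusted p = 0.0374). Kcnd3 was at 5.84, 5.78 and 5.95 with both, against 7.29, 6.93 and 7.30 with let-7a, and its groups were 0.98 apart. Kcnh3 rose by 0.86 ± 0.14 (limma adjusted p = 0.0105). The fall of Kcnd3 rests on 1 of its 2 probes, since the other was not above background, and with the dim probe averaged in the change was 0.021. With normexp Kcnk10 and Kcnd3 changed by -1.15 and -0.73, still called. Kcnc1 was not called with scaling to the 75th percentile, with no filter on dim probes, with probes above background on all 16 arrays, with each probe on its own or with only the groups compared. Without replicate 3, 26 genes were called (26.8% of all genes), and with the replicate block 19 (13.2%).

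Adding let-7a to siSfpq, 13 of 61 genes were called, 12 higher and 1 lower, where 10.3% of all genes were called, 6.2% higher and 4.14% lower. Sfpq itself was 0.52 ± 0.19 higher with both than with siSfpq (limma adjusted p = 0.0994), by 0.76, 0.03 and 0.79 in the 3 samples, and the part of this in the changes, and in the levels near the control above, was not tested. The median over the potassium channel genes was 0.30, with 42 above 0, and that over all genes was -0.02. The former fell to 0.06 with probes above background on all 16 arrays, to 0.05 with no filter on dim probes, to 0.14 with normexp and to 0.17 in the authors' table, and was 0.39 with scaling to the 75th percentile. Kcnj12 rose by 1.91 ± 0.35 (limma adjusted p = 0.0101). Kcnt1 was at 3.57, 4.76 and 3.92 with siSfpq and at 5.95, 5.65 and 6.10 with both (1.81 ± 0.32, limma adjusted p = 0.00923), and it was above background on 1 of the 4 siSfpq arrays. Kcnk10 rose by 1.29 ± 0.28 and Kcnc1 by 0.98 ± 0.21 (limma adjusted p = 0.0202 and 0.0185). With normexp Kcnt1, Kcnk10 and Kcnc1 rose by 0.63, 0.46 and 0.38, still called, but with no filter on dim probes Kcnt1 and Kcnc1 were not called, nor was Kcnc1 with probes above background on all 16 arrays or with each probe on its own.

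The other rises under let-7a in siSfpq cells were smaller and spread over the families. They were those of Kcnn3, a small-conductance calcium-activated channel (0.92), Kcnk12 (0.80), Kcna6 (0.67), Kcnk3, an acid-sensitive leak channel (0.64), Kcnh3 (0.51), Kcns3, a silent Kv subunit (0.50), Kcnn2 (0.49) and Kcnab3, a cytoplasmic beta subunit of Kv1 channels (0.45), with limma adjusted p from 0.0151 to 0.0496. Kcnn3 was at 3.54, 4.55 and 3.69 with siSfpq, above background on 1 of 4 arrays, and its change was 0.23 with normexp and 0.33 in the authors' table, not called in either. Kcnab3 lost its call in 9 of 14 alternatives, among them normexp, the authors' table, no intensity trend, probes above background on all 16 arrays and each probe on its own. Kcnk3 lost it in 7, with normexp, probes above background on all 16 arrays and each probe on its own among them, and Kcnn2 in 7, with scaling to the 75th percentile, the authors' table and each probe on its own among them. Kcnk3 rose by 0.06 in replicate 3 and by 0.92 and 0.94 in the others. Kcnj8 was the gene that fell, from 5.32, 5.29 and 6.03 with siSfpq to 4.03, 3.92 and 4.40 with both (-1.43 ± 0.25, limma adjusted p = 0.00935), with a change of -0.47 with normexp, still called.

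Without replicate 3, 32 genes were called in that comparison (47.2% of all genes), and with the replicate block 29 (33.3%). With only the 2 groups compared in the fit, 1 was called, Kcnj12 (1.2% of all genes). With no filter on dim probes it was 5, Kcnj8, Kcnj12, Kcnk10, Kcnk12 and Kcns3 (3.83% of all genes). All 38 calls of the 5 comparisons were called again without replicate 3 and with the block. These comparisons share samples: let-7a and siSfpq share the control, and the combination enters 3 of them, so the values of a gene across them are not independent.

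Whether the effect of let-7a differed between siSfpq and control cells was tested as an interaction in limma. It called 0 of 61 genes, as it called 0% of all 18338, and 7 of the 61 had an unadjusted p under 0.05 against 6.35% of all genes. Without replicate 3 it called 17, where 22.5% of all genes were called. The largest of the 17 differences was that of Kcng3, a silent Kv subunit, at 1.94 ± 0.44 (limma adjusted p = 0.0196), and the most negative that of Kcnt2, a sodium-activated channel, at -1.43. Over all 12 samples these differences were 1.29 ± 0.58 and -0.77 ± 0.53, not called (limma adjusted p = 0.787 and 0.860). With the replicate block it called 0 potassium channel genes, with 15 at an unadjusted p under 0.05 (17% of all genes), and 0.0218% of all genes.

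For 8 potassium channel genes the arrays changed between clear signal and background: they were well above background on all 4 arrays of 1 condition and on 0 or 1 of another. In 7 of them, Kcna1, Kcnc2, Kcnd2, Kcnh5, Kcnk9, Kcnn3 and Kcnt1, siSfpq was a condition with the fewest such arrays. The same held for 733 of the 886 genes of the whole array that changed in this way (82.7%), so nothing is read from the count. Kcna1, a Kv1 pore of axons, was at 4.33 to 6.15 with let-7a and at 1.60 to 4.13 with siSfpq, above background on 4 and 1 arrays. It was not called in any of the 5 comparisons, and let-7a was not tested against siSfpq. Kcnh5, an EAG channel, was at 4.80 to 5.34 with let-7a and at 2.34 to 4.23 with siSfpq, again on 4 and 1 arrays and not called in any of the 5. Kcnj8 was dim with let-7a. Kcnd2, the A-type channel of dendrites, was above background on 4 arrays of let-7a, 1 of the control, 0 of siSfpq and 0 with both. It was at 4.72, 4.64 and 4.69 with let-7a and at 3.23, 3.55 and 2.98 with both. Kcna1, Kcnh5 and Kcnd2 were tested only because of their let-7a arrays, so their levels given here are a description. Kcnk9, an acid-sensitive leak channel, was above background on 4 arrays with both and on 0 with siSfpq, and it was tested only because of its arrays with both.

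The 39 other tested genes were not called in any of the 5 comparisons, but with the replicate block 26 of them (66.7%) were called in at least 1, and the same number without replicate 3. Of all 14386 genes not called in any of the 5 comparisons, 46% and 56.7% were called in these 2 fits. The changes of the 39 genes ran from -0.83 to 1.58 with let-7a, and the highest was that of Kcna1, which was tested only because of its let-7a arrays. Kcnj6, an inward rectifier opened by G proteins, was printed in 10 spots that did not pass the detection rule in any full condition. The spots above background numbered 10, 7, 2 and 1 on the 4 control arrays, 10, 10, 2 and 10 with let-7a, and the same with both agents, but 3, 1, 0 and 2 with siSfpq.

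Promoter windows of RefSeq (GRCm38.p6, 250 bases before to 50 after a start) were at hand for 44 of the 61 tested genes and for 15 of the 22 called. The E-box CAGCTG, its own reverse complement and a core that neurogenic factors bind, was in the windows of 10 of the 44 genes (22.7%), of 3 of the 15 called (20%) and of 18.3% of the 27025 genes with a window. The other E-box, CAGATG or CATCTG on the opposite strand, was in 9 of the 44 (20.5%), 3 of the 15 (20%) and 19.2% of all. These shares were thus near those of all genes. A stretch around CAGCTG in each of the 3 called genes that hold it is shown with the motif in capitals, on the gene's strand, from chr10:112269815-112269844 (plus), chr3:105451646-105451675 (plus) and chr11:33993412-33993441 (minus).
Kcnc2: gacttctcctgtCAGCTGtcattaaggaaa
Kcnd3: ttgcgcggcgacCAGCTGcacctcactagg
Kcnip1: gagtacctggggCAGCTGcggcttcctgct
A match is a string of letters in the window and not a bound site.

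Partners of potassium channels outside the Kcn family were called in part. With let-7a, 2 of 13 tested rose, where 4.89% of all genes were higher, among them Lgi1, a secreted protein bound to Kv1 complexes (2.51 ± 0.37, limma adjusted p = 0.00228). With siSfpq, 3 of 13 fell, where 7.34% of all genes were lower. Dpp6 and Dpp10, the transmembrane partners of Kv4 channels, changed by -1.75 and -1.35 (limma adjusted p = 0.0099 and 0.0438), and Cntnap2, which clusters Kv1 channels on axons, changed by -1.07 (limma adjusted p = 0.0417). Their medians were 0.10 and -0.28.

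Many marker genes of neurons, and some of the undifferentiated cells, also differed between these samples. The 14 neuron markers, all tested, had a summed level of 15.49 to 15.76 in the control, 16.03 to 16.50 with let-7a, 14.73 to 15.12 with siSfpq and 15.33 to 15.47 with both, on the log2 scale. With let-7a, 11 of 14 rose (median 1.53), and with siSfpq 8 of 14 fell (median -0.92). The embryonal carcinoma markers summed to 15.96 to 16.18, 15.36 to 15.83, 16.21 to 16.37 and 15.84 to 15.97 in the same order. Of the 9 tested, 3 were called lower and 0 higher with let-7a (median -0.37). With siSfpq 3 were called higher and 1 lower (median 0.08), the lower one being Sox2 (-0.72). Pou5f1, Sox2 and Sall4 changed by -0.15, 0.12 and -0.03 with let-7a and were not called. Lin28a, checked above as a let-7 target, is part of these sums. The glia markers, 6 of 8 tested with S100b and Olig1 not above background, summed to 11.49 to 12.08, 11.52 to 12.38, 11.12 to 11.49 and 11.37 to 12.16. The part of cell state in the changes of the potassium channel genes was not tested.

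Mesenchyme markers, 5 of 5 tested, summed to 12.69 to 12.96 in the control, 12.64 to 12.99 with let-7a, 13.38 to 14.04 with siSfpq and 13.63 to 13.87 with both. Heart and skeletal muscle markers, 5 of 8 tested, were at 8.83 to 9.14, 9.02 to 9.24, 8.31 to 8.80 and 8.63 to 8.91, with Tnnt2, Myog and Ckm not above background. Of the endoderm markers 2 of 6 were tested (Afp, Alb, Ttr and Sox17 were not above background), with sums from 4.76 to 7.26, and of the blood markers 2 of 3 (Ptprc was not), with sums from 7.18 to 8.33.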

How the data were processed

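Total RNA of P19 cells was labelled with Cy3 and hybridised to Agilent SurePrint G3 mouse arrays, per the labels and the study's methods, which name 3 replicates where the labels give 4. The authors deposited the scanner intensities of every spot from Agilent Feature Extraction 10.7.3.1. Per the file headers, the processed intensity is background-subtracted and detrended within the array, with surrogates for low values. A further table, deposited as log2 values that limma had quantile normalised, served as an alternative.

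Processed intensities were put on the log2 scale and quantile normalised over the 16 arrays in limma 3.58.1 (R 4.3.3). Spots of a probe were averaged, probes were kept if well above background on all 4 arrays of a condition, and kept probes of a gene were averaged. This left 18338 genes. Arrays 1 and 2 of a condition were averaged. The 12 samples were fitted together with lmFit and eBayes (intensity trend, two-sided). All condition comparisons and the difference of let-7a effects were tested with Benjamini-Hochberg adjustment. The fit was also run on simulated data whose samples varied independently. Samples here that share a replicate number did not, so nothing is read from that run. An exact permutation test of 3 against 3 samples cannot go below p = 0.1 and was not used. Samples sharing a replicate number deviated together from their condition means in every pair (correlations 0.28 to 0.71), so a fit with the replicate number as a block was also made. The number of arrays limits the precision.

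Gene names are those of the array files. Of the 148 member probes, 135 matched RefSeq by accession, with 0 differing symbols, and positions are RefSeq's in GRCm38.p6. Named are the members called in at least 1 of the 5 comparisons (1 of them is not reported here), members that changed between signal and background, Kcnq1ot1, and Sfpq, Lin28a and Hmga2 as checks. Kcng3, Kcnt2, Kcnj6 and Kcnmb4os2 were singled out after their values were seen. The members and gene lists (partners of potassium channels, sodium, calcium, HCN and chloride channels, cell type markers) were chosen with earlier results of these data known. Alternatives were another scaling, background correction, filter, batch term, set of samples, threshold and handling of probes.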

Additional observations from a re-analysis of the deposited data

How the results depend on the processing

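The counts of called potassium channel genes, 9 for let-7a against control, 10 for siSfpq against control, 2, 4 and 13 for the combination against control, let-7a and siSfpq, and 0 for the difference of let-7a effects, kept within 1.5 times under scaling to the 75th percentile and with slide as a block. Same-numbered samples deviated together, and with the replicate block the counts were 21, 32, 5, 19 and 29, and 0 for the difference. With arrays 1 and 2 counted separately they were 19, 26, 4, 16 and 29, where 19.8%, 36%, 7.89%, 14.2% and 32.4% of all genes were called. Leaving out 1 replicate at a time moved them between 0 and 21, 0 and 39, 0 and 16, 0 and 26, 0 and 32, and 0 and 17 in that order, with the highest each time without replicate 3. Only the groups compared in the fit gave 0 for siSfpq against control and 1 for the combination against siSfpq, where 0% and 1.2% of all genes were called. With no filter on dim probes siSfpq against control gave 3, the combination 1 against control and 5 against siSfpq, where 5.54%, 0.653% and 3.83% of all genes were called. The change of Kcnd3 between the combination and let-7a then turned from -1.32 to 0.021. Probes above background on all 16 arrays, which keep fewer potassium channel genes, gave 5 for let-7a, 5 for siSfpq, and 2 and 6 for the combination against let-7a and siSfpq. Of all genes 6.15%, 12.9%, 2.7% and 9.68% were called there. A change of at least 1 on the log2 scale gave 5, 6, 1, 2 and 4, against 3.02%, 4.93%, 0.834%, 1.77% and 3.56% of all genes. For the combination against let-7a, normexp gave 8 and the authors' values 7 (4.31% and 3.96% of all genes). Of the 38 single calls, 34 passed again with scaling to the 75th percentile, 33 with normexp, 37 with slide as a block, 32 in the authors' values, 30 with each probe on its own and 12 with only the groups compared. With no filter on dim probes 15 passed again, 22 were lost and 1 reversed, and with probes above background on all 16 arrays 20 of 25 passed again. The cause of these moves was not tested, apart from the stricter filters. The samples are few and some probes are dim, and the part of either in the calls was not tested.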

Other observations

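The counts of other ion channel genes stand beside the shares over all genes, which for let-7a were 4.89% called upward and 2.02% downward, and for siSfpq 6.3% upward and 7.34% downward. Of 18 calcium channel genes tested, 2 were higher with let-7a, and 6 were lower and 1 higher with siSfpq, with medians of 0.46 and -0.44. The accessory subunit Cacna2d1 rose by 1.17 ± 0.18 with let-7a (limma adjusted p = 0.00269) and fell by 1.39 ± 0.18 when siSfpq was added (limma adjusted p = 0.0049). Its relative Cacna2d3 fell by 1.68 ± 0.33 with siSfpq (limma adjusted p = 0.0127) and was 1.24 ± 0.33 higher with both than with siSfpq (limma adjusted p = 0.0401).

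Of 10 sodium channel genes, Scn3a, a pore subunit of developing neurons, rose by 1.24 ± 0.32 with let-7a (limma adjusted p = 0.0389), and Scn8a, the main pore of mature axons, fell by 0.95 ± 0.19 with siSfpq (limma adjusted p = 0.0127). HCN and chloride channels held 11 tested genes, with 0 called by limma for let-7a and 3 for siSfpq, 1 higher and 2 lower. Clcn5, an endosomal chloride exchanger, was higher by 0.98 ± 0.25 (limma adjusted p = 0.0278), whereas its relative Clcn4 changed by -0.39 ± 0.11 and Ano1, a calcium-activated chloride channel, by -0.59 ± 0.17 (limma adjusted p = 0.0324 and 0.0443).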
